A study of Mus musculus with 6 samples.

Results

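The 10 genes described here encode cell-surface receptors through which melanocytes receive growth, survival and pigment signals: the G protein-coupled receptors Mc1r and Ednrb and the receptor tyrosine kinases Kit, Erbb3, Egfr, Met, Igf1r, Fgfr1, Pdgfrb and Mertk. They were taken by gene name from the deposited tables, which list 20788 genes in at least 1 library. Of the 10 receptors, 8 were listed and tested, and Ednrb and Egfr were not listed in any of the 6 tables. RNA was sequenced from Tyr-L and Tyr-H cells, 3 libraries of each, which are the only groups of the series. Both are cultured subclones of B16, a pigmented melanoma line of C57BL/6 mice, grown without a treatment in low-glucose medium with serum. Tyr-L cells have low tyrosinase activity and do not respond to tyrosine with melanin synthesis, and Tyr-H cells have high tyrosinase activity and use tyrosine readily for melanin. The study picked them for this difference from colonies grown from separated cells, and whether each group was 1 clone is not given in the sources used here. No source names separate cultures for the 3 libraries within a group either, so p-values here measure only the spread between these libraries, which may be technical. The study's captions speak in general of 3 independent experiments, without saying how the libraries relate to these.

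In melanocytes, melanocortin peptides act on Mc1r to raise cAMP, which turns on the transcription factor Mitf and pigment synthesis. Kit with its ligand, and Ednrb with endothelins, guide the survival and migration of melanocyte precursors. Receptor tyrosine kinases pair up on ligand binding, phosphorylate each other and recruit adaptors that feed the MAP kinase and PI3 kinase pathways. Erbb3 has little kinase activity of its own and signals with a partner such as Erbb2.

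Levels are in FPKM, fragments scaled to transcript length and to the mapped fragments of the library, and a gene that a library does not list was taken as 0. Differences are log2 fold changes, Tyr-H minus Tyr-L, of FPKM + 0.1, tested with limma. Calls required both an adjusted p no greater than 0.05 and a fold change of at least 1 on the log2 scale. The files hold no counts. Depth estimated from the steps between low values was 20100000 to 22800000 fragments, and the range of Tyr-L libraries overlapped that of Tyr-H libraries. The FPKM that 3 fragments would give a gene at this depth is called its floor, which covers counting error only. Coordinates are from GENCODE M21 (GRCm38).

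All 10 melanocyte lineage markers were listed in every library. Tyrp1 was at 3667 ± 101 FPKM in Tyr-L and 3122 ± 138 in Tyr-H (SD, n = 3 each), Dct at 1446 ± 23.8 and 930 ± 51.6, Pmel at 1370 ± 14.5 and 827 ± 63.5, and Mlana at 785 ± 22.1 and 662 ± 11.8. Both groups thus held abundant transcripts of the pigment cell lineage, and the others were Slc45a2 (216 and 207 FPKM), Sox10 (112 and 75.5), Pax3 (31.7 and 34.8) and Gpr143 (26.3 and 13.5). Tyr, which encodes tyrosinase, the activity by which the study chose the subclones, was at 10.7, 9.52 and 9.8 FPKM in Tyr-L and at 23.8, 20.6 and 19.7 in Tyr-H, higher in each Tyr-H library as its label says. Mitf was at 90.5 ± 6.64 FPKM in Tyr-L and 25.0 ± 1.56 in Tyr-H (log2 fold change -1.85, SE 0.06, limma, adjusted p = 1e-07). The FPKM totals of the Tyr-H libraries (473089 to 494468) were above those of Tyr-L (446757 to 456749). As deposited, the median log2 fold change of the 14336 genes tested was -0.15, and after median ratio scaling it was -0.01. The number of genes called changed from 425 higher and 829 lower to 538 higher and 588 lower. Differences below are to be read against this shift.

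The 8 listed receptors spanned a wide range of levels, from Met at 127 ± 5.16 FPKM to Mertk at 0.523 ± 0.0101 FPKM in Tyr-L (SD, n = 3). Mc1r, Met and Kit were called lower in Tyr-H, and Mc1r alone after median ratio scaling or quantile normalization. None was called higher by limma, and 0 of 8 were higher at an unadjusted p under 0.05. Over all genes tested, 5.78% were called lower and 2.96% higher. With median ratio scaling 588 of all 14336 genes were called lower and 538 higher, and with quantile normalization 494 and 611. By the adjusted p alone, Erbb3 and Igf1r were lower as well, so that 5 of 8 passed in that direction and 0 in the other, beside 39.9% and 17.9% of all genes. The median log2 fold change of the 8 was -0.58, beside -0.15 for all genes tested. The Tyr-L and Tyr-H libraries did not overlap for 6 of the 8 receptors, and this held for 64% of all genes. With 3 libraries against 3, the smallest p of an exact permutation test is 0.1, which these 6 receptors reached. The summed FPKM of the receptors was 223, 214 and 221 in Tyr-L and 103, 99.9 and 95.9 in Tyr-H. Met made up 58.1% of this sum in Tyr-L and 62% in Tyr-H, and Mc1r 33.8% and 26.2% (means of 3 libraries). In bulk RNA, fewer cells with a transcript and less of it in each cell cannot be told apart.

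**Figure D1:**
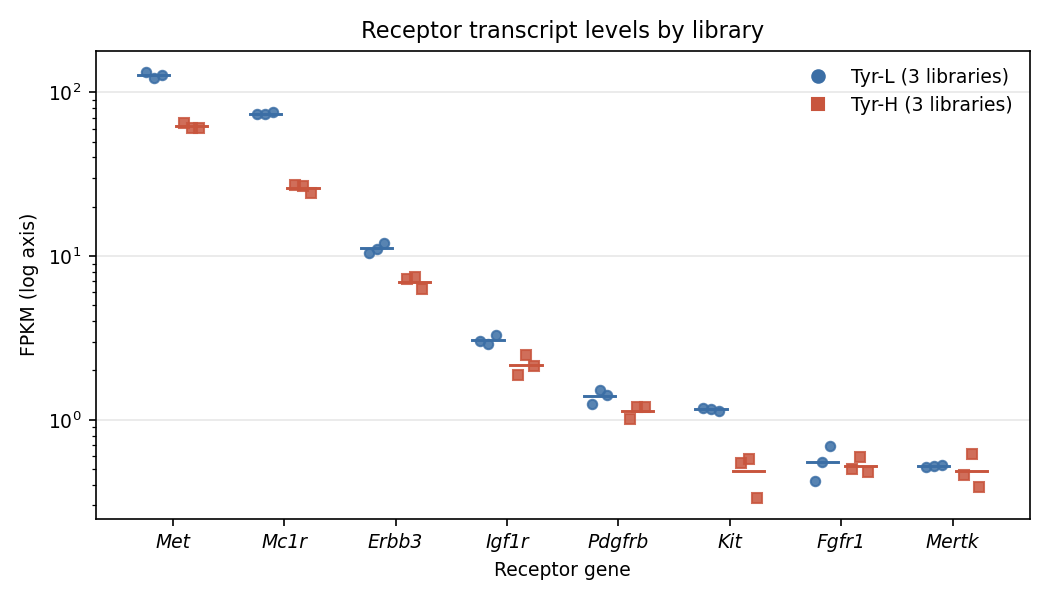
FPKM (log axis) of the 8 listed receptors in each library; circles are Tyr-L, squares Tyr-H and short lines the means of 3 libraries. Met and Mc1r lie far above the rest in both groups, and the groups overlap only for Fgfr1 and Mertk.

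In Tyr-L the order of the levels was Met, Mc1r, Erbb3, Igf1r, Pdgfrb, Kit, Fgfr1 and Mertk, and only the last pair of neighbours overlapped in their ranges over the libraries. The gap was widest between Mc1r and Erbb3, whose means differed 6.64-fold. In Tyr-H the first 5 kept their places, Kit came last, and the ranges of Fgfr1 and Mertk and of Mertk and Kit overlapped. Against the other receptor tyrosine kinases, Met was the most abundant of 58 in both groups. Erbb3 was in place 7 in both, Igf1r in 11 and 13, Pdgfrb in 16 and 18, and Kit in 17 and 23 (Tyr-L and Tyr-H).

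Mc1r, the melanocortin receptor that sets the balance of black and yellow pigment in the mouse coat (chr8:123407107-123410744, plus strand), was at 73.3, 73.5 and 75.3 FPKM in Tyr-L and at 27.2, 26.8 and 24.3 in Tyr-H. All 3 Tyr-H libraries were far below the lowest Tyr-L library, and the libraries of a group lay close together. The mean was 74.0 ± 1.08 FPKM in Tyr-L and 26.1 ± 1.6 in Tyr-H (SD, n = 3), a log2 fold change of -1.50 (SE 0.05, 95% interval -1.61 to -1.40, limma, adjusted p = 8.2e-08), or 2.83-fold lower on the scale of FPKM + 0.1. Mc1r had rank 975 of 19474 genes listed in Tyr-L and 2898 of 18994 in Tyr-H. It was called lower in every alternative run, and after median ratio scaling its log2 fold change was -1.35. The gene lies inside Gm20388, a readthrough gene on the same strand at 11.5 ± 0.343 FPKM in Tyr-L and 12.2 ± 0.318 in Tyr-H (log2 fold change 0.08, limma, adjusted p = 0.19), and reads of the 2 genes may have been split. Gm38092 on the other strand also overlaps Mc1r and was at 0.162, 4.99 and 4.54 FPKM in Tyr-L and at 0.12, 1.12 and 0 in Tyr-H. Whether the counting used strand is not given in the sources used here.

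The promoter windows of the 2 receptors called lower with the highest levels are shown for the E-boxes (6-base sites of basic helix-loop-helix factors) and AP-1 sites in them. CATGTG and the form with the letters CACGTG are E-boxes that Mitf, among other factors, is known to bind. Each line gives the 250 bases before the RefSeq start (GRCm38.p6, plus strand, 5′ to 3′), for Mc1r chr8:123406832-123407081 and for Met chr6:17463707-17463956, with motif matches in capitals.
Mc1r: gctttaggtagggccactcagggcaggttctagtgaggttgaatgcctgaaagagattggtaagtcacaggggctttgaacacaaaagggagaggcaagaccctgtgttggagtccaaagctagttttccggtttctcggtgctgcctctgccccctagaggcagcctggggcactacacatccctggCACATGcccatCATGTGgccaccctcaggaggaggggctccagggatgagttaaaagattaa
Met: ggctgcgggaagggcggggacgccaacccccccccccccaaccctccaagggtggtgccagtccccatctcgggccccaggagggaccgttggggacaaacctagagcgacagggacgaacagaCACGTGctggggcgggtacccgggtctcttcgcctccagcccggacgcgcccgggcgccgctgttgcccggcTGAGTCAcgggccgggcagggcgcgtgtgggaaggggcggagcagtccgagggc
Searched on both strands of 300-base windows (250 before to 50 after the start) were CATGTG, the other E-box form CACGTG, the AP-1 site TGACTCA and a core of SOX factor sites, ACAAAG. The Mc1r window held 2 matches of CATGTG, starting 62 and 51 bases before the start, which lie close to each other on opposite strands. Of all 32851 windows, 14.2% held at least 1 such match and 2.08% at least 2. The Met window held CACGTG 126 bases and an AP-1 match 54 bases before the start, against 7.15% and 5.2% of all windows. These positions refer to the RefSeq start. The GENCODE start of Met, chr6:17463800, lies inside the printed stretch, and both matches are downstream of it. The Met window is rich in CpG, with 34 of these dinucleotides, while the Mc1r window held 4 and the median window 7. The windows of Kit, Ednrb, Egfr and Mertk held none of the 4 motifs. The Igf1r window held a match of the SOX core just after the start, against 18.7% of all windows. Windows were found for 7 of the 10 receptors. These are matches of letters, and binding was not measured.

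Of the ligand and accessory genes of melanocortin receptors, Mrap was called lower, and whether Pomc passed the adjusted p depended on the scaling. Mrap, a small membrane protein best known as an accessory of Mc2r, was at 1.79, 2.41 and 1.57 FPKM in Tyr-L and at 0.195, 0.12 and 0.349 in Tyr-H. It was called lower, with a log2 fold change of -2.70 (SE 0.28, limma, adjusted p = 4e-05), and 1 Tyr-H library was near the floor of 0.109 to 0.124 FPKM. Pomc, which encodes the precursor of the melanocortins, was at 0.817, 1.16 and 1.11 FPKM in Tyr-L and at 0.883, 0.615 and 0.471 in Tyr-H, where the groups overlap (log2 fold change -0.60, 95% interval -1.13 to -0.07, limma, adjusted p = 0.052). With libraries rescaled to an equal total it was -0.73 and passed (limma, adjusted p = 0.03), and under each scaling it was short of the fold threshold. Asip, the natural antagonist of Mc1r, stayed under its floor in all 6 libraries, Mrap2 was above its floor in 1 Tyr-L library, and Mc2r, Mc3r, Mc4r and Mc5r were not listed.

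Of 40 G protein, adenylyl cyclase, protein kinase A and arrestin genes that act downstream of Mc1r or Ednrb, 32 were tested. Adcy2, an adenylyl cyclase, was called lower, from 0.812 ± 0.107 FPKM to 0.271 ± 0.0716 (SD, n = 3, log2 fold change -1.31, SE 0.23, limma, adjusted p = 0.00088). With a pseudocount of 1 FPKM it was -0.51 and no longer called. The others lay between -0.64 and 0.57 on the log2 scale and were not called. Over all genes, 5.78% were called lower and 2.96% higher. By the adjusted p alone, 20 of the 32 were lower and 4 higher, beside 39.9% and 17.9% of all genes, and the list's median was -0.26 beside -0.15. After median ratio scaling, 11 were lower and 5 higher, beside 27% and 27.8% of all genes, with a median of -0.11.

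Kit (chr5:75574916-75656722, plus strand), the receptor of stem cell factor, was scarce in both groups. It was at 1.18, 1.17 and 1.13 FPKM in Tyr-L and at 0.544, 0.58 and 0.335 in Tyr-H. Each Tyr-H library was below each Tyr-L library, and the third was the lowest. The means were 1.16 ± 0.0238 and 0.486 ± 0.132 FPKM (SD, n = 3), with a log2 fold change of -1.13 (SE 0.21, 95% interval -1.59 to -0.66, limma, adjusted p = 0.0013), or 2.19-fold lower. Without the third Tyr-H library it was -0.93, and after median ratio scaling -0.99, both past the adjusted p but short of the fold threshold. With a pseudocount of 1 FPKM, which weighs on genes this low, it was -0.54. Kitl, its ligand, was at 1.49, 1.25 and 1.34 FPKM in Tyr-L and 1.81, 1.88 and 1.82 in Tyr-H (log2 fold change 0.41, SE 0.12, limma, adjusted p = 0.018), without overlap but under the fold threshold. With libraries rescaled to an equal total it was 0.34 and no longer passed (limma, adjusted p = 0.051). Per length of transcript, the level of Kitl was thus above that of Kit in both groups. Of the kinases closest to Kit, Pdgfra was at 0.22 and 0.233 FPKM (log2 fold change 0.05, limma, adjusted p = 0.87), and Csf1r and Flt3 were not listed.

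Ednrb (chr14:103814625-103844402, minus strand), the endothelin receptor of melanocyte precursors, was not listed in any library. At the estimated depth, 3 fragments would have given 0.032 to 0.0363 FPKM. The endothelins Edn1, Edn2 and Edn3 were not listed either, and the related receptor Ednra was under its floor in all 6 libraries. Among the enzymes that mature endothelins, Ece1 was at 0.288, 0.313 and 0.289 FPKM in Tyr-L and at 0.435, 2.4 and 0.734 in Tyr-H. It was called higher (log2 fold change 1.39, SE 0.47, limma, adjusted p = 0.031), but without the second Tyr-H library the change was 0.75 with an adjusted p of 0.054, and leaving out any Tyr-L library left the change at 1.37 to 1.42 with adjusted p from 0.065 to 0.071, which also ended the call. Ece2, another of these enzymes, was higher by the adjusted p alone (log2 fold change 0.70, limma, adjusted p = 2.9e-05), and its change was 0.85 after median ratio scaling (limma, adjusted p = 8.9e-06). No fold is given for Ednrb, and no difference could be tested.

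Met (chr6:17463800-17573980, plus strand), the receptor of hepatocyte growth factor, was the most abundant of these receptors in every library. It was at 133, 123 and 127 FPKM in Tyr-L and at 64.5, 60.2 and 60.9 in Tyr-H. The Tyr-H libraries lay well below the Tyr-L libraries, with little spread within either group. The means were 127 ± 5.16 and 61.9 ± 2.31 FPKM (SD, n = 3), and the log2 fold change was -1.04 (SE 0.04, 95% interval -1.14 to -0.95, limma, adjusted p = 2.4e-07), or 2.06-fold lower. The change stands at the fold threshold: after median ratio scaling it was -0.89 and after quantile normalization -0.99, so that the call was lost while the adjusted p stayed under 0.05. Met had rank 509 of 19474 genes in Tyr-L and 1135 of 18994 in Tyr-H. Its ligand Hgf was listed only in the third Tyr-H library, at 0.0236 FPKM, under its floor, and the related receptor Mst1r was above its floor in 2 Tyr-L libraries.

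Erbb3 (chr10:128567523-128589652, minus strand), the neuregulin receptor of neural crest cells, was at 10.5, 11.0 and 12.0 FPKM in Tyr-L and at 7.26, 7.43 and 6.27 in Tyr-H. All Tyr-H libraries lay below all Tyr-L libraries. The means were 11.2 ± 0.768 and 6.99 ± 0.627 FPKM (SD, n = 3), with a log2 fold change of -0.67 (SE 0.08, 95% interval -0.85 to -0.49, limma, adjusted p = 1e-04), or 1.59-fold lower, which is short of the fold threshold. After median ratio scaling it was -0.52, and the adjusted p passed in every alternative run. Erbb2, the partner with which Erbb3 is known to signal, was at 2.64, 3.12 and 3.03 FPKM in Tyr-L and at 3.98, 3.91 and 3.65 in Tyr-H (log2 fold change 0.38, SE 0.10, limma, adjusted p = 0.0078). The partners moved in opposite directions, and the ratio of Erbb3 to Erbb2 was 3.96, 3.52 and 3.96 in Tyr-L and 1.83, 1.9 and 1.72 in Tyr-H. Erbb4 was at 0.131 and 0.0875 FPKM (log2 fold change -0.30, limma, adjusted p = 0.43). The neuregulins were taken as a family, whether or not each binds Erbb3. Among them, Nrg2 was at 0.41 and 0.367 FPKM and Nrg4 at 0.226 and 0.198, neither past the threshold (limma, adjusted p = 0.63 and 0.72). Nrg1 and Nrg3 were not listed.

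Egfr (chr11:16752203-16918158, plus strand) was not listed in any library, where 3 fragments would have given 0.0129 to 0.0146 FPKM. Its antisense gene Egfros was listed in 1 Tyr-H library, at 0.0131 FPKM, under its own floor. Transcripts of several Egfr ligands were present. Tgfa, transforming growth factor alpha, was at 1.49, 1.28 and 1.3 FPKM in Tyr-L and at 2.3, 2.14 and 1.96 in Tyr-H (log2 fold change 0.62, SE 0.13, limma, adjusted p = 0.0025). Egf itself was at 0.593, 0.376 and 0.822 FPKM in Tyr-L and at 0.257, 0.234 and 0.202 in Tyr-H, and was called lower (log2 fold change -1.03, SE 0.28, limma, adjusted p = 0.011). The Egf call was lost without the third Tyr-L library (-0.80), without the third Tyr-H library (-0.96) and after median ratio scaling (-0.91). Hbegf (1.69 and 1.49 FPKM) and Btc (0.187 and 0.291) did not pass (limma, adjusted p = 0.33 and 0.23). Epgn was under its floor in all libraries, and Areg and Ereg were not listed.

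**Figure D2:**
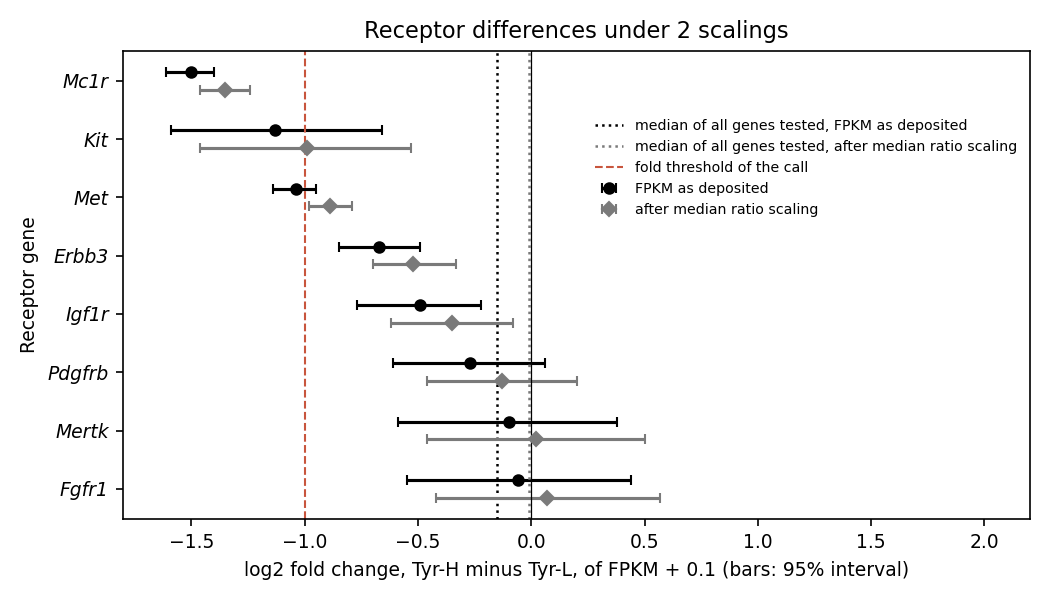
log2 fold change (Tyr-H minus Tyr-L, of FPKM + 0.1) of the 8 listed receptors with the 95% interval of limma, for FPKM as deposited (circles) and after median ratio scaling (diamonds); dotted lines mark the median of all genes tested and the dashed line the fold threshold. Mc1r stays past the threshold under both scalings (-1.50 and -1.35), Kit and Met cross it, and the intervals of Pdgfrb, Mertk and Fgfr1 include 0.

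Igf1r (chr7:67952827-68233668, plus strand), the receptor of insulin-like growth factors, was at 3.04, 2.9 and 3.31 FPKM in Tyr-L and at 1.89, 2.5 and 2.13 in Tyr-H. The groups did not overlap, though the spread was wider than for Met or Mc1r. The means were 3.09 ± 0.208 and 2.17 ± 0.304 FPKM (SD, n = 3), with a log2 fold change of -0.49 (SE 0.12, 95% interval -0.77 to -0.22, limma, adjusted p = 0.0071), or 1.41-fold lower. It was -0.35 after median ratio scaling (adjusted p = 0.034) and -0.31 after quantile normalization (adjusted p = 0.048). The insulin receptor Insr, its closest relative, was at 3.56 ± 0.121 and 3.71 ± 0.201 FPKM (log2 fold change 0.06, 95% interval -0.14 to 0.25, limma, adjusted p = 0.6). The ratio of Igf1r to Insr was 0.843 to 0.907 in Tyr-L and 0.516 to 0.635 in Tyr-H. Igf2r, which clears Igf2 and sorts lysosomal enzymes, was at 27.4 and 24.9 FPKM, with a log2 fold change of -0.14 (limma, adjusted p = 0.045) that is about the shift of all genes and was 0.02 after median ratio scaling. Igf1 was not listed, and Igf2 was listed in 1 Tyr-H library at 0.0442 FPKM. Of the IGF binding proteins, Igfbp6 was called higher, from 0.0331, 0.0906 and 0.135 FPKM to 0.362, 0.202 and 0.539 (log2 fold change 1.30, SE 0.37, limma, adjusted p = 0.013), although 2 Tyr-L libraries were under the floor and the call was lost without the third Tyr-H library (1.04, adjusted p = 0.06).

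Fgfr1 (chr8:25513654-25575718, plus strand), a receptor of fibroblast growth factors, was at 0.422, 0.55 and 0.695 FPKM in Tyr-L and at 0.5, 0.59 and 0.478 in Tyr-H. The ranges overlapped widely, and no difference was detected (log2 fold change -0.06, 95% interval -0.55 to 0.44, limma, adjusted p = 0.84). A change of a size inside that interval is not excluded by these libraries, and the sign turned with the scaling (0.07 after median ratio scaling). Fgfrl1, a relative without a kinase domain, was at 7.08, 6.95 and 6.34 FPKM in Tyr-L and at 13.6, 14.8 and 16.5 in Tyr-H. It was called higher, with a log2 fold change of 1.13 (SE 0.08, limma, adjusted p = 4.1e-06), and it was the most abundant FGF receptor gene in both groups. Fgfr3 was at 1.9 ± 0.36 and 1.19 ± 0.332 FPKM (log2 fold change -0.65, limma, adjusted p = 0.021, and -0.51 with adjusted p = 0.058 after median ratio scaling). Fgfr2 was at 0.021 and 0.131 FPKM and was not tested, and Fgfr4 was under 0.1 FPKM on average in each group. The fibroblast growth factors were also taken as a family, whether or not each binds Fgfr1. Of them, Fgf1 was at 3.43, 3.68 and 3.86 FPKM in Tyr-L and at 1.99, 1.62 and 1.7 in Tyr-H. It was called lower at the fold threshold (log2 fold change -1.01, SE 0.11, limma, adjusted p = 5.9e-05). Fgf2 was at 0.446, 0.358 and 0.302 FPKM in Tyr-L and at 0.0801, 0.125 and 0.153 in Tyr-H and was also called lower (log2 fold change -1.10, SE 0.28, limma, adjusted p = 0.0073). After median ratio scaling Fgf1 was at -0.86 and Fgf2 just short of the threshold. The Fgf1 call was lost without the third Tyr-L (-0.97), the second Tyr-H (-0.95) or the third Tyr-H library (-0.99), and the Fgf2 call without the first Tyr-L (-0.99) or the first Tyr-H library (-0.97). Fgf9 was at 0.0761 and 0.142 FPKM (limma, adjusted p = 0.31), Fgf7 at 0.136 and 0.0396 FPKM was not tested, Fgf18 was under its floor, and Fgf4, Fgf5, Fgf8, Fgf10 and Fgf23 were not listed.

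Of the 34 ligand genes of these receptors and their families, 21 were listed and 13 were tested. Egf, Fgf1 and Fgf2 were called lower and 0 higher by limma (2 were higher at an unadjusted p under 0.05), beside 5.78% and 2.96% of all genes, and Kitl and Tgfa were higher by the adjusted p alone. The median log2 fold change of the 13 was -0.16, beside -0.15 for all genes. After median ratio scaling no ligand was called, and by the adjusted p alone the counts were 2 higher and 3 lower, as in the deposited values, while the shares of all genes went from 17.9% and 39.9% to 27.8% and 27%. With libraries rescaled to an equal total they were 1 higher and 5 lower, beside 1859 and 6855 of all 14336 genes, since Kitl no longer passed (limma, adjusted p = 0.051) and Pomc (0.03) and Pros1 (0.046) passed as lower. Of 24 receptors of the same families and co-receptors, 10 were tested, with Axl and Fgfrl1 called higher and Mrap called lower under each of the 4 scalings, beside 2.96% and 5.78% of all genes as deposited. By the adjusted p alone 3 were higher and 4 lower, beside 17.9% and 39.9%, with a median of -0.04.

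**Figure D3:**
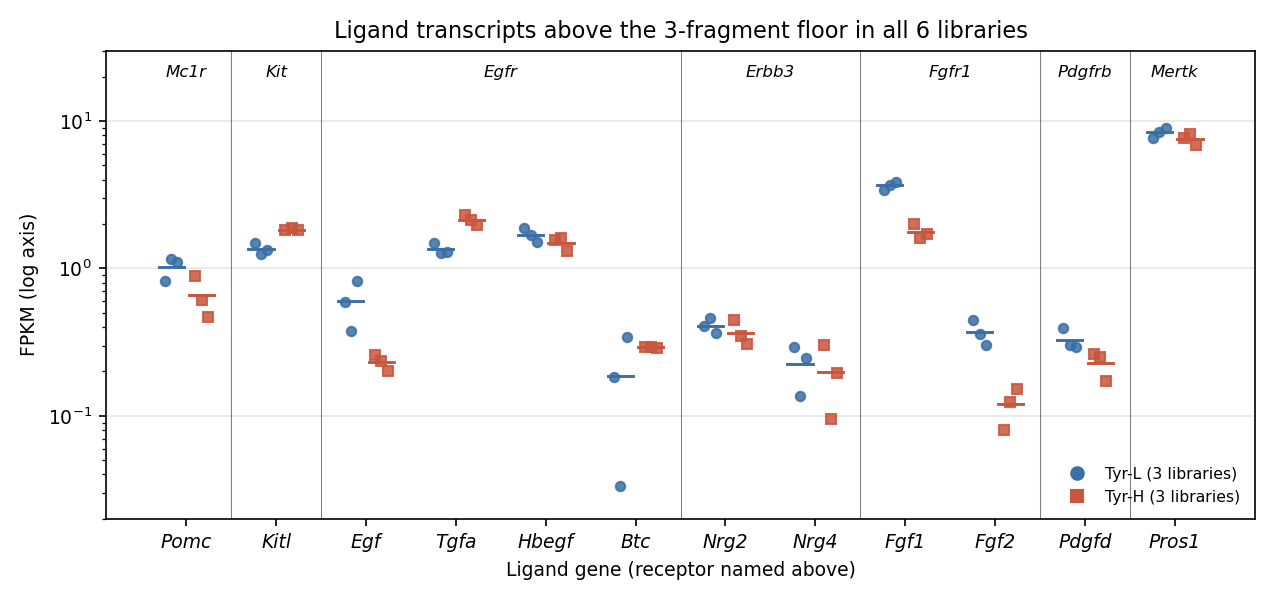
FPKM (log axis) of the 12 ligand genes above their floor in all 6 libraries. They are grouped under a receptor of the family they act on, not always the one each binds. Circles are Tyr-L, squares Tyr-H and short lines the means of 3 libraries. Fgf1, Fgf2 and Egf lie lower in Tyr-H, Kitl and Tgfa higher, and the other 7 did not pass the adjusted p as deposited.

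Pdgfrb, a platelet-derived growth factor receptor better known from pericytes and fibroblasts (chr18:61045150-61085061, plus strand), was at 1.24, 1.53 and 1.42 FPKM in Tyr-L and at 1.01, 1.19 and 1.2 in Tyr-H. The groups did not overlap, but the gap between them was small against their spread. The log2 fold change was -0.27 (SE 0.15, 95% interval -0.61 to 0.06, limma, adjusted p = 0.14). After median ratio scaling it was -0.13. Of its ligands, Pdgfd was at 0.329 and 0.229 FPKM (limma, adjusted p = 0.21) and Pdgfb at 0.0501 and 0.111, not tested. Of 11 fibroblast and pericyte markers, 8 were listed, Thy1, Rgs5 and Acta2 were at 0 in every library, and the summed level was 4.83 to 5.19 FPKM in Tyr-L and 6.44 to 6.87 in Tyr-H, mostly Des. Its tested members went both ways by the adjusted p, with Des (log2 fold change 0.50) and Col1a1 (0.71) higher and Col1a2 (-0.91) lower (limma, adjusted p = 0.00065, 0.017 and 0.0087).

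Mertk (chr2:128698956-128802894, plus strand), which with Axl and Tyro3 forms the TAM family of receptors for Gas6 and protein S, was at 0.512, 0.524 and 0.532 FPKM in Tyr-L and at 0.46, 0.615 and 0.386 in Tyr-H. The groups overlapped, and no difference was detected (log2 fold change -0.10, SE 0.21, 95% interval -0.59 to 0.38, limma, adjusted p = 0.7). Axl was at 1.01, 1.05 and 0.868 FPKM in Tyr-L and at 2.81, 2.97 and 3.38 in Tyr-H, called higher (log2 fold change 1.55, SE 0.13, 95% interval 1.26 to 1.85, limma, adjusted p = 1.1e-05). Tyro3 was at 7.72, 8.71 and 8.87 FPKM in Tyr-L and at 5.54, 5.91 and 5.54 in Tyr-H (log2 fold change -0.56, SE 0.07, limma, adjusted p = 0.00016), lower without reaching the fold threshold. The 3 members of the family thus differed in direction: Axl rose, Tyro3 was lower, and for Mertk no difference was detected (0.02 after median ratio scaling). The ratio of Axl to Tyro3 went from 0.131, 0.12 and 0.0978 in Tyr-L to 0.508, 0.503 and 0.61 in Tyr-H, so that Tyro3 was above Axl in every library. Pros1, which encodes protein S, was at 8.39 ± 0.66 and 7.58 ± 0.629 FPKM (log2 fold change -0.15, limma, adjusted p = 0.16), and Gas6 was near its floor in both groups. Of 10 macrophage and leukocyte markers, 4 were listed, with sums of 3.67 to 4.24 FPKM in Tyr-L and 4.44 to 4.83 in Tyr-H, mostly Cd68, while Ptprc, Adgre1, Csf1r, Itgam, Cd14 and Cx3cr1 were at 0 in every library. Endothelial markers summed to at most 0.505 FPKM in a library and epithelial markers to at most 0.269.

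**Figure D4:**
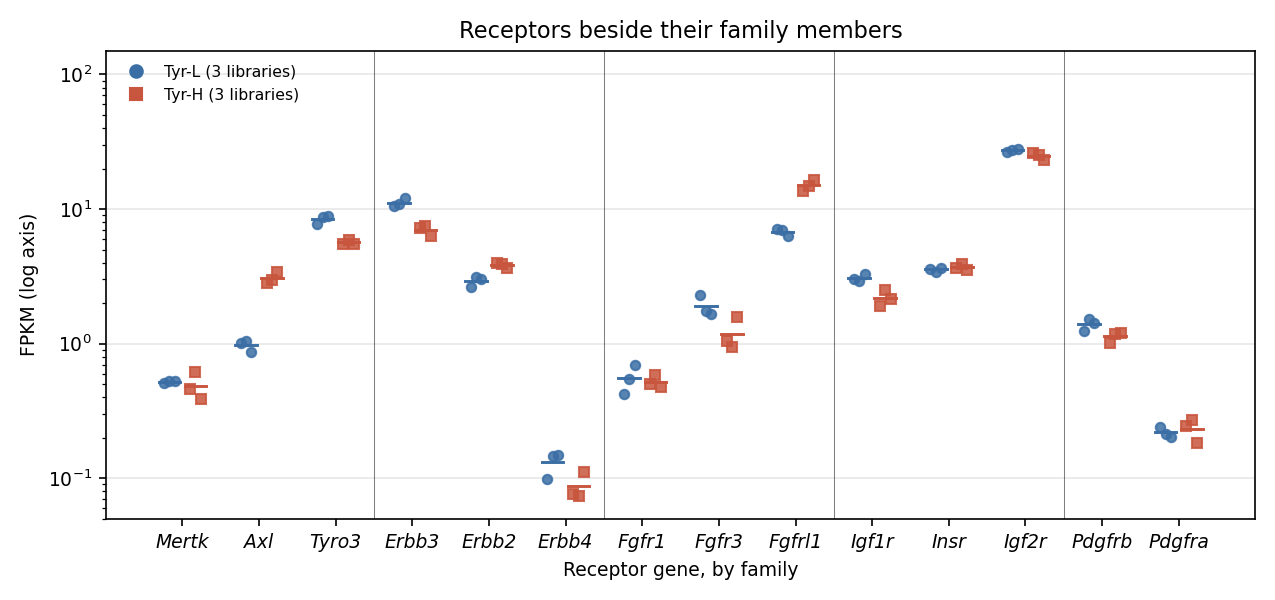
FPKM (log axis) of 5 receptors beside family members with a mean of at least 0.1 FPKM in either group and all libraries above 0; vertical lines separate the families, circles are Tyr-L, squares Tyr-H and short lines the means of 3 libraries. Axl, Erbb2 and Fgfrl1 are higher in Tyr-H while Erbb3, Tyro3, Fgfr3 and Igf1r are lower.

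Ratios between receptors in the same library do not depend on the scaling of that library. The ratios given here and above were chosen after the values were seen, so that their separation between the groups is a description and carries no test. Met to Mc1r was 1.81, 1.67 and 1.68 in Tyr-L and 2.37, 2.24 and 2.51 in Tyr-H. Erbb3 to Mc1r was 0.143 to 0.159 in Tyr-L and 0.259 to 0.277 in Tyr-H. Met to Erbb3 was 10.6 to 12.7 and 8.1 to 9.71, and Erbb3 to Kit 8.91 to 10.6 and 12.8 to 18.7.

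Across all 30 receptor tyrosine kinases tested, 7 of them among the receptors described here, the 23 others had 2 called higher and 0 called lower by limma (8 were lower at an unadjusted p under 0.05). Over all genes, 2.96% were called higher and 5.78% lower. The 2 called higher were Axl and Epha2, a receptor of ephrins. Epha2 was at 0.505, 0.802 and 0.548 FPKM in Tyr-L and at 1.48, 1.35 and 1.7 in Tyr-H (log2 fold change 1.18, SE 0.19, limma, adjusted p = 0.00063, and 0.64 and no longer called with a pseudocount of 1 FPKM). The uncalled ones reached 0.65 on the upper side, and Epha7, another ephrin receptor, at 2.48 and 1.21 FPKM (limma, adjusted p = 0.001), was just short of the fold threshold on the lower side and past it when libraries were rescaled to an equal total. The median of the 23 was 0.05 beside -0.15 for all genes. By the adjusted p alone, 5 were higher and 8 lower, beside 17.9% and 39.9% of all genes, and after median ratio scaling 5 were higher and 4 lower, beside 27.8% and 27%. Of the 7 growth receptors, Met and Kit were called lower as deposited, beside 5.78% of all genes. With median ratio scaling 0 of 7 were called lower, beside 588 of all 14336 genes. With quantile normalization it was 0 of 7 beside 494. Whether the 7 differ from the 23 was not tested.

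**Figure D5:**
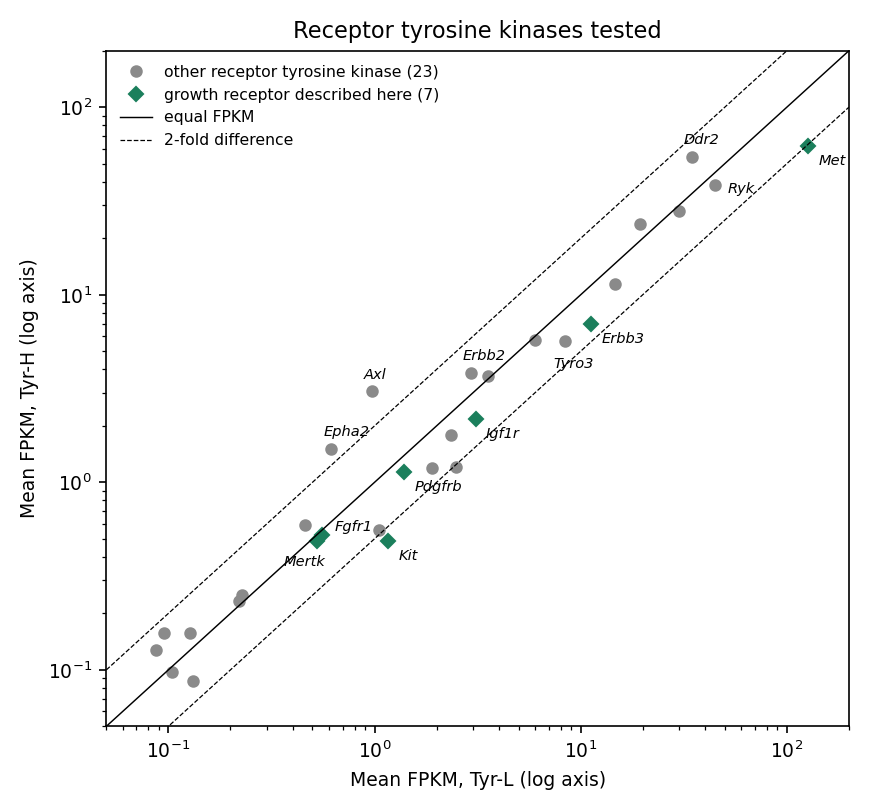
Mean FPKM in Tyr-H against mean FPKM in Tyr-L (both log axes) for the 30 receptor tyrosine kinases tested, with the 7 growth receptors as diamonds. The solid line marks equal levels and the dashed lines a 2-fold difference; Met, Kit and Epha7 lie at or beyond the lower dashed line, and Axl and Epha2 beyond the upper one.

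Of 31 genes for adaptors, PI3 kinase subunits and other proteins that dock on activated receptor kinases, 30 were tested. Pik3r3, a regulatory subunit of PI3 kinase, was the only one called as deposited, beside 5.78% lower and 2.96% higher of all genes. It was at 31, 27.1 and 30.3 FPKM in Tyr-L and 11.3, 11.5 and 11.1 in Tyr-H (log2 fold change -1.37, SE 0.06, limma, adjusted p = 2.7e-07). It was lower in each Tyr-H library by more than the spread of either group, and the other 29 lay between -0.84 and 0.55 on the log2 scale. Shc3 was also called lower when libraries were rescaled to an equal total (-1.01, limma, adjusted p = 0.0082). By the adjusted p alone 13 were lower and 4 higher, beside 39.9% and 17.9% of all genes, and the median was -0.16 beside -0.15. After median ratio scaling 13 were lower and 10 higher, beside 27% and 27.8% of all genes, with a median of -0.01 for the list and for all genes.

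Among 24 tested genes for receptor inhibitors, ubiquitin ligases and phosphatases, 1 was called in each direction as deposited, beside 2.96% higher and 5.78% lower of all genes. After median ratio scaling or quantile normalization 2 were called higher and 0 lower by limma (8 were lower at an unadjusted p under 0.05 in each). Of all 14336 genes, 538 and 611 were called higher under these 2 scalings and 588 and 494 lower. Lrig1, which is known to restrain ErbB receptors, was at 0.195, 0.0711 and 0.0702 FPKM in Tyr-L and at 0.393, 0.532 and 0.434 in Tyr-H (log2 fold change 1.42, SE 0.30, limma, adjusted p = 0.003), and its change was 0.39 and no longer called with a pseudocount of 1 FPKM. Ptprj, a phosphatase known to act on Met, was at 10.3, 9.88 and 10.2 FPKM in Tyr-L and at 4.76, 5.01 and 4.53 in Tyr-H (log2 fold change -1.07, SE 0.06, limma, adjusted p = 1.8e-06), and its change was -0.92 after median ratio scaling, which ended the call. The uncalled ones lay between -0.78 and 0.97, and by the adjusted p alone 7 were higher and 10 lower, beside 17.9% and 39.9% of all genes. Grb14, an adaptor that inhibits the insulin receptor, was at 0.343 and 0.772 FPKM (log2 fold change 0.97, limma, adjusted p = 0.0037) and was called higher after median ratio scaling (1.09). Of 16 tested genes for ligand and receptor processing and IGF binding, Ece1 and Igfbp6 were called higher and 0 lower by limma (4 were lower at an unadjusted p under 0.05), beside 2.96% and 5.78% of all genes. The uncalled ones of the 16 lay between -0.50 and 0.98, and the median was 0.11 beside -0.15 for all genes. Timp3, an inhibitor of metalloproteinases, had the 0.98 (1.82 and 3.68 FPKM, limma, adjusted p = 6.8e-05) and was called higher too after median ratio scaling (1.13) and quantile normalization (1.15). By the adjusted p alone 7 were higher and 4 lower, beside 17.9% and 39.9% of all genes, and after median ratio scaling 9 and 2, beside 27.8% and 27%.

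Several of these genes share a locus with another gene in the annotation, which leaves their values uncertain. Of the receptors, these are Mc1r as described, Mertk (with Gm14011 and Gm23172, not listed), Fgfr1 (with Gm16159), Erbb3 (with Mir6917) and Egfr (with Egfros). Except at Mc1r, the overlapping genes were at or near 0. Of the 13 called genes around them, they are Fgf2 (with Nudt6 and Fgf2os), Fgf1 (with Arhgap26), Egf (with 6330410L21Rik), Pik3r3 (with Gm49337), Lrig1 (with Slc25a26), Ptprj (with 4933423P22Rik), Ece1 (with Gm13012) and Adcy2 (with Gm26929). Erbb2 overlaps Mien1, Tgfa overlaps Gm43917, Mitf overlaps Gm15531, and Timp3 overlaps Syn3. Met, Kit, Igf1r and Pdgfrb share none, nor do Mrap, Axl, Fgfrl1, Epha2, Igfbp6, Tyro3 and Kitl.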

How the data were processed

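RNA of B16 subclones was sequenced in 3 Tyr-L and 3 Tyr-H libraries, grouped by the submitters' labels. Libraries were made with an mRNA kit. The submitters' processing notes name Trimmomatic, HISAT2, HISAT and the build GRCm38.p6. The quantifier, the annotation and the use of strand are not given in the sources used here. The authors deposited 1 table of FPKM values per library, which they had scaled to transcript length and mapped fragments. Genes without a value are not listed and were taken as 0. No counts were recovered: with single-transcript genes of at least 1500 nt, only 27.8% to 37.7% of low values were near whole multiples of 1 fragment, so depth is an estimate and no count test was run.

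The members and gene lists were chosen with earlier results of these data known, and no list was tested as a set. Genes averaging 0.1 FPKM or more entered limma 3.58.1 in R 4.3.3 (log2(FPKM + 0.1), eBayes with trend, two-sided, Benjamini-Hochberg over 14336 genes), a procedure tested on simulated data. Named were all 10 members, every called gene of each list, ligands and family members with a mean of at least 0.1 FPKM in either group, the melanocyte markers and some further genes of the lists. Promoter sequences came from RefSeq (GRCm38.p6). Tables and plots were made in Python 3.11.15 (pandas 2.3.3, numpy 2.4.6, matplotlib 3.10.9).

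Alternatives were pseudocounts of 0.01 and 1, no filter, a minimum mean of 1 FPKM, a common total of 1000000 per library, median ratio scaling, quantile normalization, no variance trend, the replicate number as a block, the adjusted p alone, and each library left out in turn. No pair of libraries shared more than 1 identical value above 0.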

Additional observations from a re-analysis of the deposited data

How the results depend on the processing

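Mc1r was called lower under all alternatives run, with log2 fold changes from -1.60 to -1.35. Met (-1.14 to -0.89), Erbb3 (-0.77 to -0.50) and Igf1r (-0.60 to -0.31) kept their direction and passed the adjusted p in all of them. Kit (-1.3 to -0.54) did so in every run that tested it. For Met and Kit only the fold threshold was not always met. The number of receptors called lower was 3 as deposited, 1 each with median ratio scaling and quantile normalization, 2 each with a pseudocount of 1, with a required mean of 1 FPKM and without the third Tyr-H library, 5 by the adjusted p alone, and 3 under the other alternatives. With the required mean of 1 FPKM, Kit was filtered out and not tested. For 2 receptors without a detected difference the sign turned. Fgfr1 was at 0.07 after median ratio scaling and 0.13 after quantile normalization, and between -0.21 and 0.09 with a library left out (0.09 without the third Tyr-L library). Mertk was at 0.02 and 0.10 under the same scalings, and between -0.26 and 0.02 with a library left out (0.02 without the third Tyr-H library). Of all genes tested 1254 were called, 388 with a pseudocount of 1 and 640 when a mean of 1 FPKM was required, and of the genes in the lists 13, 4 and 7 in the same order. The pseudocount of 1 ended the calls of Adcy2, Ece1, Egf, Epha2, Fgf1, Fgf2, Igfbp6, Lrig1 and Ptprj. Where 1 library was left out, an arm of 2 was compared with an arm of 3. Same-numbered libraries showed no sign of deviating together (correlations 0.0223, 0.0132 and -0.0834). Deviations from means of 3 libraries cannot exclude that the numbers pair cultures or batches. With the replicate block 3 receptors were called lower, as without it, and 1258 genes in all. Depth limits what can be said of Ednrb, Egfr and the ligands near their floor.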
